A study of Mus musculus with 12 samples.

Results

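The 9 genes described here carry vitamin A through the retinal pigment epithelium (RPE) or mark that cell layer: Rpe65, Lrat, Rdh5, Rdh10, Rlbp1, Rgr, Stra6, Ttr and Best1. They were chosen by name, and each name was found as 1 row among the 21930 genes of the count table. Bulk RNA-seq libraries came from wild-type male C57BL/6J mice, 12 libraries in 4 groups of 3. AL mice fed freely and IF mice fasted on alternate days, in both cases for 12 weeks from an age of 8 weeks. Each mouse then had 1 intraperitoneal injection, either PBS or sodium iodate (NaIO3) at 25 mg/kg, an oxidant that damages the RPE, and tissue was taken 7 days later. The groups are therefore AL + PBS, IF + PBS, AL + NaIO3 and IF + NaIO3, and all mice carried the same genotype. NaIO3 acts on the whole animal, so these groups model acute oxidant injury and not an inherited defect. The labels call the tissue RPE, choroid and sclera, while the study's methods give eye cup tissue for RNA-seq. Those methods name both eye cups of a mouse for other assays only.

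The visual cycle returns the light-bleached chromophore of rod and cone opsins to its active form. Photoreceptors release all-trans-retinol, the RPE esterifies it, RPE65 isomerises the ester to 11-cis-retinol, and 11-cis-retinol dehydrogenases complete the aldehyde that is sent back. Vitamin A reaches the RPE from blood on a carrier complex of retinol-binding protein and transthyretin, through the receptor STRA6. Loss of function of several of these genes causes inherited retinal degeneration in people.

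The levels were checked against the label of the tissue. RPE transcripts were abundant: the 9 members summed to between 0.116% and 0.29% of all counts in a library. Photoreceptor transcripts were more abundant still, since a list of 15 photoreceptor markers summed to between 15.0 and 53.1 times the members in CPM, the count of a gene relative to its library's TMM-scaled total. Transcripts of the neural retina were thus present in every library. In such bulk tissue, fewer RPE cells and less RNA per RPE cell cannot be told apart. Library totals were between 26364665 and 43046950 counts, and 3 counts corresponded to between 0.0708 and 0.107 CPM. The library AL + NaIO3 replicate 3 stood apart from both others of its group: it had the lowest photoreceptor sum of the 12 libraries (20900 CPM) and the highest pigment gene, macrophage, stroma and Müller cell sums. The members' calls between pairs of groups, and their interaction, are given with and without it. Replicate 2 of that group had the highest cornea sum, 574 CPM against 75.0 and 36.7 CPM in the other two and 38.9 to 78.8 CPM in AL + PBS. AL + PBS replicate 2 had the highest lens sum, 284 CPM against 1.04 to 7.65 CPM in the other 11 libraries. The labels do not say that the 3 libraries of a group came from separate cages or days, so p-values measure the spread between these libraries.

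The proximal promoters of members with different fitted changes are shown. Of the 9 members, 7 had an entry in the RefSeq promoter table (GRCm38.p6). Each run below holds the 250 bases before the annotated start, 5′ to 3′ on the strand of the gene. Capitals mark matches, on either strand, to the core bound by OTX and CRX factors (TAATCC or GGATTA), to 2 forms of the E-box (CACGTG, and CATGTG or CACATG) or to a SOX core (ACAATG or CATTGT). Rpe65, Rgr and Lrat were the members with the lowest levels in AL + NaIO3 relative to AL + PBS by fitted values. Best1 was the member that was not lower by fitted value (log2 fold change 0.62, SE 0.47). It had 19 to 53 counts in these libraries, and its groups overlapped.
Rpe65, chr3:159598931-159599180, plus strand: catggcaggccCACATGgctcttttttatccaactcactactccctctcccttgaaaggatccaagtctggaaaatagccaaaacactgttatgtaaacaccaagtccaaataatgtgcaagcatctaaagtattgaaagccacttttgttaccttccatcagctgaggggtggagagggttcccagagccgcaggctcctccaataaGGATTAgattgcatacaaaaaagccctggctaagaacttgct
Rgr, chr14:37049015-37049264, minus strand: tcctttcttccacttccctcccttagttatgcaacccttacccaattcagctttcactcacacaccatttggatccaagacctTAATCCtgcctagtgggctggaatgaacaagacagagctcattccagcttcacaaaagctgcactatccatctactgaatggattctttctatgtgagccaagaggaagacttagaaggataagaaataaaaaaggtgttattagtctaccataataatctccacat
Lrat, chr3:82903975-82904224, minus strand: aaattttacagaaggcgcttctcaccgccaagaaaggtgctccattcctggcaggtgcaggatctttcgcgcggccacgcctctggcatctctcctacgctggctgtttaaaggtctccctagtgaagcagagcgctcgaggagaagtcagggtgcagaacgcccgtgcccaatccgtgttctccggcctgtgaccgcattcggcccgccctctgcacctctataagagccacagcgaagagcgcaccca
Best1, chr19:10001634-10001883, minus strand: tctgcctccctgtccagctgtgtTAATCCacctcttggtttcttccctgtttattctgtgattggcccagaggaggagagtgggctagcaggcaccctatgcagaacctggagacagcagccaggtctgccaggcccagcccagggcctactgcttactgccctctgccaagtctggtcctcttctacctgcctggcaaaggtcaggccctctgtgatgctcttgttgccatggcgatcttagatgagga
The OTX and CRX core was present in the windows of Rpe65, Rgr and Best1, and in 6.25% of the 32851 promoters of the table. In Rpe65 it lay between 42 and 37 bases before the start, in Rgr between 167 and 162, and in Best1 between 227 and 222. CATGTG or CACATG, present in 12.3% of all windows, occurred in Rpe65 and Rlbp1. The SOX core, present in 10.7%, occurred in Rdh5. CACGTG, present in 6.02%, occurred in no member window, and the windows of Lrat and of the 4 annotated starts of Stra6 held none of these letters. These motifs do not overlap one another in the windows shown, and a match is a description of letters only. Rpe65 and Best1 both held the OTX and CRX core, at levels of 54.8 and 0.265 FPKM in AL + PBS.

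The order of the levels was compared per length, in FPKM as the authors deposited it. Transthyretin (Ttr), the blood and RPE carrier of retinol and thyroid hormone, was the highest member in AL + PBS at 500 ± 42.4 FPKM (SD, n = 3). Rlbp1 (chr7:79374870-79387048, GRCm38), which encodes the 11-cis-retinoid carrier CRALBP, followed at 204 ± 5.51 FPKM. Rgr (chr14:37034909-37048964), an RPE and Müller cell opsin that photoisomerises retinal, was at 99.0 ± 9.45 FPKM. Rdh5 (chr10:128913593-128922888), an 11-cis-retinol dehydrogenase, was at 86.4 ± 4.41 FPKM. Rgr and Rdh5 were the only neighbours whose ranges overlapped in AL + PBS. Rpe65 (chr3:159599175-159625321), the isomerase itself, was at 54.8 ± 8.59 FPKM. Rdh10 (chr1:16105774-16133734), a retinol dehydrogenase of RPE and Müller cells, was at 22.5 ± 1.46 FPKM. The receptor Stra6 (chr9:58063788-58153996) was at 9.3 ± 1.06 FPKM and Lrat (chr3:82892579-82903973), which makes retinyl esters, was at 6.14 ± 0.775 FPKM. Best1 (chr19:9985174-10001633), an RPE chloride channel, was at 0.265 ± 0.0311 FPKM, far below the other RPE genes. In AL + NaIO3 the order of Rgr and Rdh5 was exchanged (37.6 ± 9.02 and 47.5 ± 14.1 FPKM), but their ranges still overlapped.

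**Figure D1:**
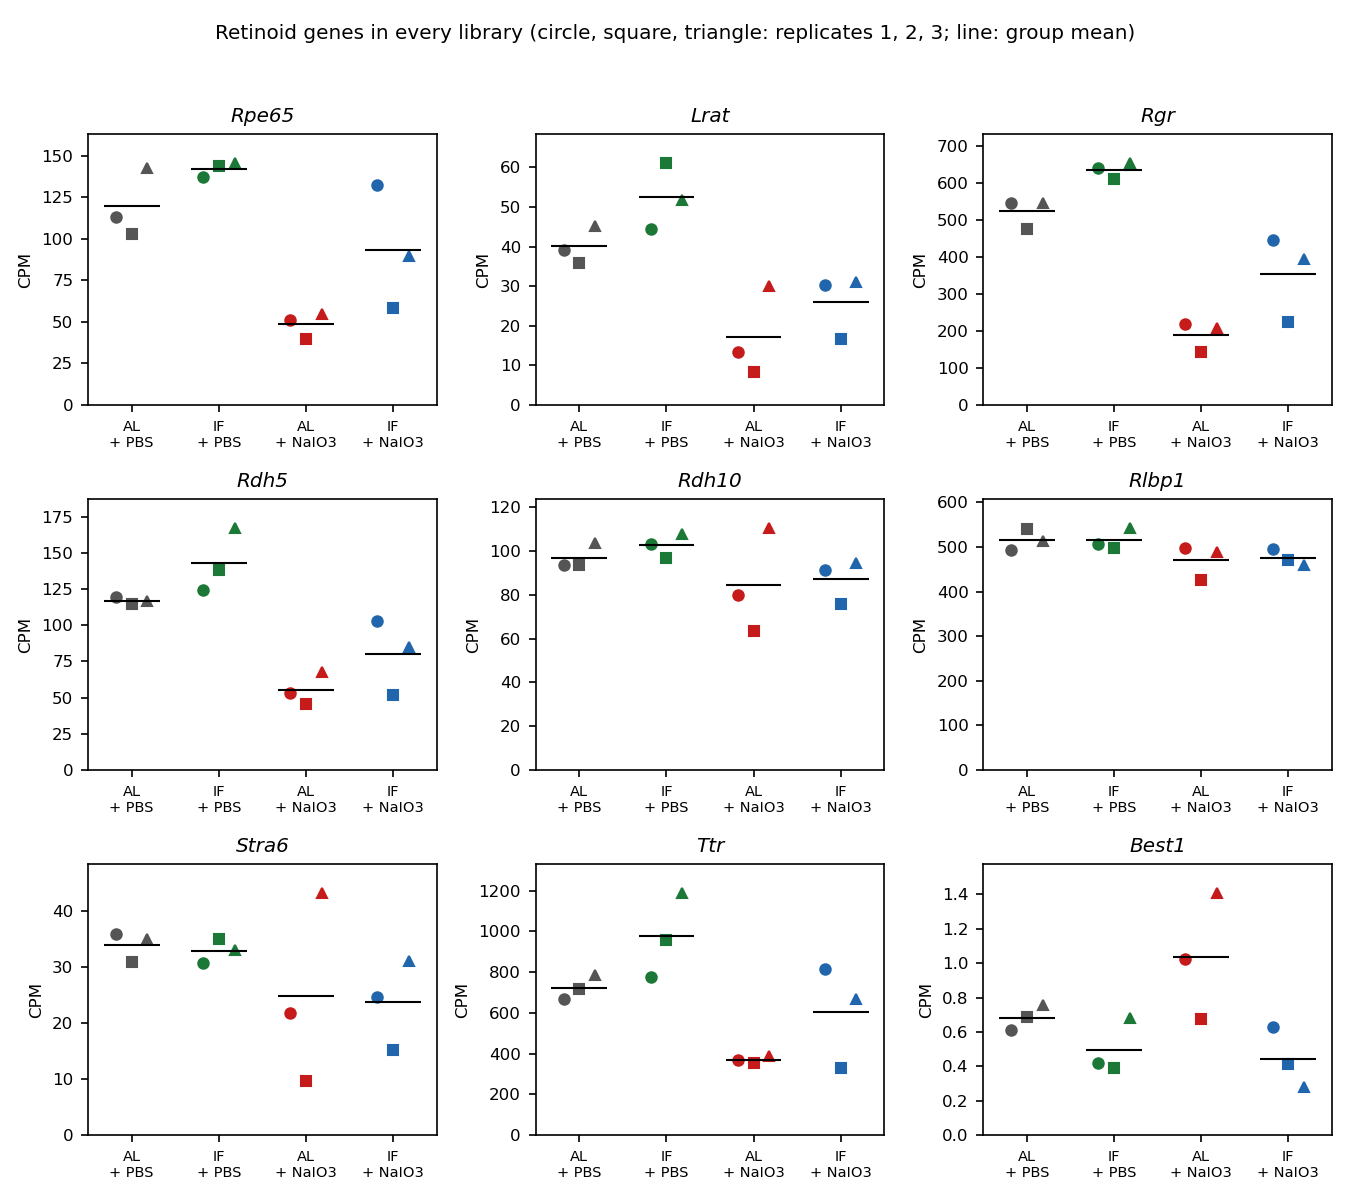
CPM of each member (vertical axis, from 0) in the 4 groups, with 1 point per library and a line at the group mean. For Rpe65, Rgr, Rdh5, Ttr and Lrat, each of the 3 AL + NaIO3 libraries lies below each AL + PBS library, while Rlbp1 stays between 426 and 543 CPM in all 12 libraries.

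NaIO3 in freely fed mice was the first comparison, which asks what the oxidant did to the RPE genes. Rgr, Rpe65, Rdh5 and Ttr were at 36.6%, 40.9%, 48% and 51.5% of their PBS level by fitted values. Lrat was at 43.7%, with more spread, and Rlbp1 and Rdh10 stayed near their PBS level. None of the 9 members reached the call of edgeR's quasi-likelihood test, which asks for a Benjamini-Hochberg adjusted p below 0.05 together with a change of 1.5 times or more. In that test 12 of 15612 genes were called, or 0.0769%. By the unadjusted p under 0.05, 5 of 9 members passed, against 10.2% of all genes, and the same 5 had groups that did not overlap, lower after NaIO3, against 8.63% of all genes. The median log2 fold change of the members was -0.96 and that of all tested genes 0.01.

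Isomerisation and the opsin gave the steepest differences. Rpe65 was at 113, 103 and 143 CPM in AL + PBS (replicates 1, 2 and 3) and at 51.3, 39.6 and 54.6 CPM in AL + NaIO3. The highest treated library was thus below the lowest control library. The log2 fold change of Rpe65 was -1.29 (SE 0.17, edgeR adjusted p = 0.0672), which is 40.9% of the PBS level and 19th by p among the genes tested. Rgr was at 546, 476 and 546 CPM in AL + PBS and at 219, 143 and 208 CPM in AL + NaIO3. Its log2 fold change was -1.45 (SE 0.19, edgeR adjusted p = 0.0672), or 36.6% of the PBS level, and only 0.173% of genes had a lower fold change. These groups did not overlap either.

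Rdh5, which oxidises the product of the isomerase, was at 119, 114 and 117 CPM in AL + PBS and at 53.5, 45.3 and 67.7 CPM in AL + NaIO3. Its control libraries lay within a few CPM of one another, and its treated libraries were all far below them. The log2 fold change of Rdh5 was -1.06 (SE 0.16, edgeR adjusted p = 0.0968). Reads of Rdh5 may be shared with the overlapping gene Bloc1s1, which had between 794 and 1423 counts in the 12 libraries, so the Rdh5 counts are uncertain to that extent. Ttr was at 666, 717 and 786 CPM in AL + PBS and at 370, 352 and 386 CPM in AL + NaIO3. Its log2 fold change was -0.96 (SE 0.14, edgeR adjusted p = 0.0935), with the tightest treated group of any member.

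Retinol esterification and entry were more variable. Lrat was at 39.2, 35.8 and 45.2 CPM in AL + PBS and at 13.4, 8.32 and 30.03 CPM in AL + NaIO3. Replicate 3 was more than 2-fold above both others yet still below every control. The log2 fold change of Lrat was -1.19 (SE 0.42, edgeR adjusted p = 0.387). Stra6 was at 35.8, 30.8 and 35.0 CPM in AL + PBS and at 21.8, 9.6 and 43.1 CPM in AL + NaIO3. Replicate 3 was above all controls here, so the groups overlapped. The log2 fold change of -0.43 (SE 0.45) had an edgeR adjusted p = 0.791. Both other treated libraries were below every control. With 1 library left out, the log2 fold change of Stra6 was between -1.11 and -0.0422. Stra6 shares its locus with Ccdc33, which had at most 47 counts in a library.

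The carrier gene Rlbp1 and the dehydrogenase Rdh10 were closer to their control levels. Rlbp1 was at 492, 541 and 513 CPM in AL + PBS and at 498, 426 and 488 CPM in AL + NaIO3, a log2 fold change of -0.12 (SE 0.14, edgeR adjusted p = 0.808). Rdh10 was at 93.7, 93.7 and 104 CPM against 79.9, 63.5 and 111 CPM, a log2 fold change of -0.18 (SE 0.20, edgeR adjusted p = 0.795). In both genes the groups overlapped. Rlbp1, Rdh10 and Rgr, the member with the lowest fitted value, are also known from Müller cells, the radial glia of the retina. The list of 8 Müller cell markers summed to between 3686 and 4665 CPM in AL + NaIO3 and to between 4004 and 4489 CPM in AL + PBS. The part of those cells in the members' values was not tested. Best1 was near the floor, with 19, 29 and 23 counts in AL + PBS and 32, 19 and 53 counts in AL + NaIO3. Its log2 fold change was 0.62 (SE 0.47, edgeR adjusted p = 0.691), and the groups overlapped.

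The calls in this comparison depended on the test and on 1 library. Without AL + NaIO3 replicate 3, edgeR called 5 members, namely Rpe65, Lrat, Rdh5, Rgr and Ttr, when 0.572% of all genes were called. Their log2 fold changes were then between -1.88 (Lrat, adjusted p = 0.0123) and -1.003 (Ttr, adjusted p = 0.0142). DESeq2 on the 6 libraries called Rpe65, Rdh5, Rgr and Ttr, against 2.63% of all genes. One edgeR fit of the 12 libraries called Rpe65, Rdh5 and Rgr, against 1.11% of all genes. Leaving out a control library or either other NaIO3 library called none of the members. Each fit without a control library called 0 genes at all. Without AL + NaIO3 replicate 1, 8 of 15891 genes were called, and without replicate 2, 5 of 15804.

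**Figure D2:**
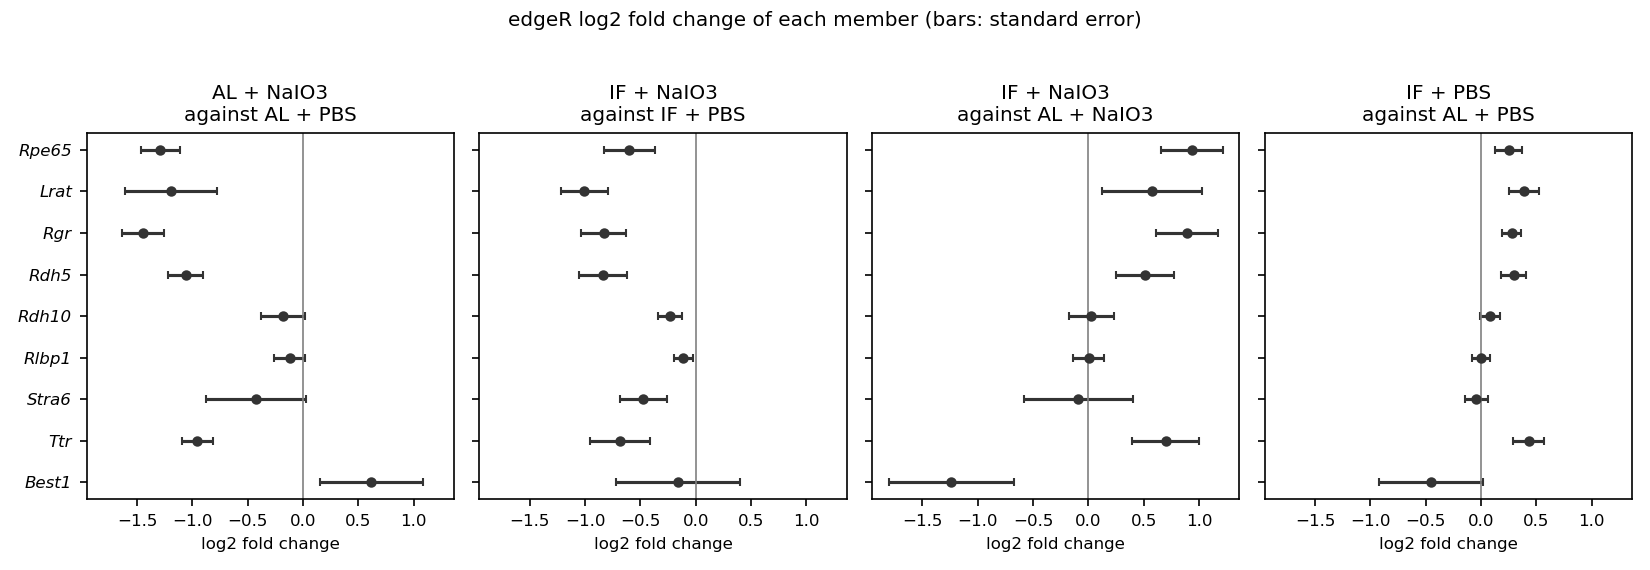
Fitted log2 fold change of each member (horizontal axis) with its standard error, 1 panel for each comparison of 2 groups. Rpe65, Lrat, Rgr, Rdh5 and Ttr lie left of 0 in both comparisons of NaIO3 with PBS, and Rlbp1 and Rdh10 lie no farther from 0 than the -0.23 of Rdh10 in fasted mice.

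NaIO3 in fasted mice was compared with PBS in fasted mice. All 9 fitted log2 fold changes were below 0, from -1.005 for Lrat to -0.11 for Rlbp1, with a median of -0.60 against 0.00 for all genes. That median was -0.94 without IF + NaIO3 replicate 1 and -0.36 without replicate 2. Markers of other tissues were higher in IF + NaIO3 by fitted values, with none called: 4 of 4 cornea genes (median 2.20), 5 of 5 erythrocyte genes (median 0.65) and 5 of 5 skeletal muscle genes (median 0.89). Their part in the members' values was not tested. No gene at all was called by edgeR (0% of 15305). By unadjusted p under 0.05, 6 of 9 members passed, against 15.2% of all genes, and 6 of 9 had groups that did not overlap, lower after NaIO3, against 10.9% of all genes. DESeq2 called Lrat, Rdh5 and Rgr, against 0.47% of all genes. edgeR without IF + PBS replicate 1 called Lrat alone, against 1.27% of all genes.

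Rpe65 was at 137, 144 and 146 CPM in IF + PBS and at 132, 58.7 and 89.4 CPM in IF + NaIO3. Replicate 1 was thus just under the controls, while replicate 2 was far below them. The log2 fold change of Rpe65 was -0.60 (SE 0.23, edgeR adjusted p = 0.273). Rgr was at 639, 612 and 653 CPM against 446, 224 and 395 CPM, a log2 fold change of -0.83 (SE 0.20, edgeR adjusted p = 0.212). Lrat was at 44.4, 61.1 and 51.9 CPM against 30.3, 16.8 and 31.2 CPM, a log2 fold change of -1.005 (SE 0.21, edgeR adjusted p = 0.211). The treated and control libraries of these 3 genes did not overlap, and replicate 2 was the lowest treated library in each.

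Rdh5 was at 124, 138 and 167 CPM in IF + PBS and at 103, 51.6 and 85.0 CPM in IF + NaIO3, a log2 fold change of -0.84 (SE 0.22, edgeR adjusted p = 0.212). Ttr was at 777, 960 and 1188 CPM against 814, 330 and 670 CPM, so replicate 1 of the treated group lay within the controls. Its log2 fold change was -0.68 (SE 0.27, edgeR adjusted p = 0.286). Stra6 was at 30.6, 35.0 and 33.1 CPM against 24.7, 15.2 and 31.1 CPM, and its groups overlapped. The small differences of Rdh10 (-0.23, SE 0.11) and Rlbp1 (-0.11, SE 0.09) came from groups that did not overlap, since their libraries varied little. Best1 had 13, 12 and 22 counts in IF + PBS and 22, 15 and 8 counts in IF + NaIO3.

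**Figure D3:**
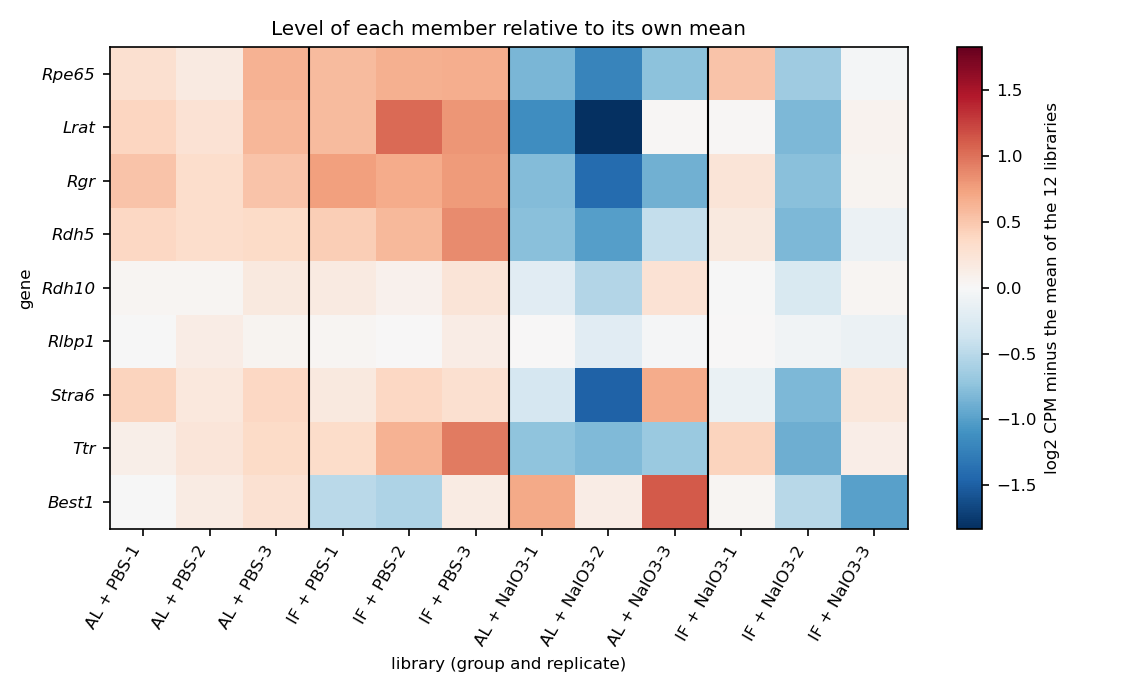
Each member's log2 CPM minus its own mean over the 12 libraries (colour scale), with libraries in columns and genes in rows. AL + NaIO3 replicate 2 and IF + NaIO3 replicate 2 are the bluest columns of their groups, and Rlbp1 and Rdh10 are the palest rows.

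Fasted and freely fed mice were compared after NaIO3. This comparison includes any difference between the diets that was present without NaIO3. It shares the AL + NaIO3 libraries with the first comparison, so a low value there enters both. Without NaIO3, fasted mice were at 119% of the freely fed level for Rpe65, 121% for Rgr, 135% for Ttr, 131% for Lrat and 123% for Rdh5. After NaIO3, Rpe65 and Rgr were at 191% and 185% of the AL + NaIO3 level, and Ttr, Lrat and Rdh5 at 162%, 149% and 143%, by fitted values. None was called by edgeR, which called 6 genes of 15648 (0.0383%), all 6 lower in IF + NaIO3. By unadjusted p under 0.05, 3 of 9 members passed (Rpe65, Rgr and Ttr), against 11.7% of all genes. The median log2 fold change was 0.51 for the members and -0.01 for all genes, and the members' median was 0.25 without AL + NaIO3 replicate 2, the library with the high cornea sum, and 0.28 without IF + NaIO3 replicate 1. Markers of other cells differed in the same comparison, with none called by edgeR: 15 of 15 photoreceptor genes were higher in IF + NaIO3 by fitted values (median 0.45), while 9 of 9 macrophage genes (median -2.46), 6 of 6 stroma genes (median -2.01) and 4 of 4 cornea genes (median -2.01) were lower. The photoreceptor sum was 58930 to 66020 CPM in IF + NaIO3 and 20900 to 69110 CPM in AL + NaIO3, and the stroma sum 119 to 142 CPM against 101 to 1335 CPM, so both sums overlapped. Their part in the members' values was not tested.

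Each Rpe65 value in IF + NaIO3 (132, 58.7 and 89.4 CPM) was above each value in AL + NaIO3 (51.3, 39.6 and 54.6 CPM). The gap between the nearest libraries was small, 58.7 against 54.6 CPM. The log2 fold change of Rpe65 was 0.93 (SE 0.28, edgeR adjusted p = 0.296). For Rgr the nearest libraries were 224 and 219 CPM, and the log2 fold change was 0.89 (SE 0.28, edgeR adjusted p = 0.306). These 2 of 9 members were the ones with groups that did not overlap and were higher, against 8.86% of all genes. Best1 alone did not overlap in the other direction, against 10.1% of all genes, at 0.631, 0.413 and 0.277 CPM in IF + NaIO3 and 1.03, 0.676 and 1.41 CPM in AL + NaIO3.

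Ttr (log2 fold change 0.70, SE 0.30, edgeR adjusted p = 0.426), Lrat (0.57, SE 0.45, edgeR adjusted p = 0.637) and Rdh5 (0.51, SE 0.26, edgeR adjusted p = 0.486) had groups that overlapped. For Ttr and Rdh5, the overlapping library was IF + NaIO3 replicate 2, which at 330 CPM was below the lowest AL + NaIO3 library for Ttr (352 CPM) and at 51.6 CPM was within the AL + NaIO3 range for Rdh5. Rdh10, Rlbp1 and Stra6 had log2 fold changes of 0.03, 0.00 and -0.09. The sign for Stra6 turned without AL + NaIO3 replicate 3, to 0.57 (edgeR adjusted p = 0.741), and Lrat then was at 1.25 (edgeR adjusted p = 0.192), with Rpe65 at 1.03 (edgeR adjusted p = 0.267) and Rgr at 0.96 (edgeR adjusted p = 0.298). No member was called without that library, when 75 of 15740 genes were. DESeq2 called Rpe65 and Rgr, against 3.05% of all genes. A fit of the other 11 libraries together without that replicate, chosen after the data had been seen, called Lrat alone, against 0.758% of all genes.

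Fasting without NaIO3 was compared in the PBS groups. By fitted values 6 of 9 members were higher and 3 lower in IF + PBS, from 73.1% of the AL + PBS level for Best1 to 135% for Ttr. No gene was called by edgeR (0% of 15361), and no member by DESeq2, which called 192 of 15361 genes. By unadjusted p under 0.05, 4 of 9 members passed, namely Ttr, Lrat, Rdh5 and Rgr, against 17.1% of all genes, and 2 of 9 had groups that did not overlap, higher in IF, against 10.6% of all genes. Rgr was at 639, 612 and 653 CPM against 546, 476 and 546 CPM, a log2 fold change of 0.28 (SE 0.09, edgeR adjusted p = 0.194). Rdh5 was at 124, 138 and 167 CPM against 119, 114 and 117 CPM, a log2 fold change of 0.29 (SE 0.11, edgeR adjusted p = 0.242). The IF + PBS libraries of both genes were all above those of AL + PBS. Ttr had a log2 fold change of 0.43 (SE 0.14), Lrat of 0.39 (SE 0.13) and Rpe65 of 0.25 (SE 0.12), and the groups of these 3 overlapped. Rlbp1 had 0.00 (SE 0.08; just below 0), Rdh10 0.08 (SE 0.09) and Stra6 -0.04 (SE 0.11). Best1 had -0.45 (SE 0.47, edgeR adjusted p = 0.65), the farthest from 0 of the 9, at counts near the floor and with groups that overlapped. Markers of other tissues were lower in IF + PBS by fitted values: 5 of 5 skeletal muscle genes (median -1.82), 4 of 4 cornea genes (median -1.94), 6 of 6 stroma genes (median -0.87), 5 of 5 erythrocyte genes (median -0.43) and 5 of 6 lens genes (median -5.80), with none called. The lens sum was 7.65, 284 and 5.75 CPM in AL + PBS and 1.54 to 2.45 CPM in IF + PBS. The muscle sum was 15.85 to 67.0 CPM in IF + PBS and 90.7 to 207 CPM in AL + PBS, and the part of such tissue in the members' values was not tested. The members' median was 0.25, or 0.15 without AL + PBS replicate 2, the library with the high lens sum. Without it no member was called, and 1 of 15569 genes was. IF + PBS shares its libraries with the comparison of NaIO3 in fasted mice.

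Whether the effect of NaIO3 differed between diets was tested by the interaction of diet and injection over the 12 libraries. In that test 5 of 15970 genes were called, or 0.0313%, and no member was among them. DESeq2 called 217 of 15970 genes and no member. By edgeR, no member passed the unadjusted p under 0.05, against 12% of all genes. The interaction of Rpe65 was 0.70 (SE 0.33, edgeR adjusted p = 0.42) and that of Rgr 0.62 (SE 0.31, edgeR adjusted p = 0.435). The other values were 0.28 for Ttr (SE 0.36), 0.23 for Rdh5 (SE 0.30), 0.20 for Lrat (SE 0.51), 0.02 for Rlbp1 (SE 0.15), -0.04 for both Rdh10 (SE 0.23) and Stra6 (SE 0.55), and -0.77 for Best1 (SE 0.72). Without AL + NaIO3 replicate 3 no member was called either, when 32 of 16105 genes were. The signs of Rdh10 and Stra6 then turned, to 0.20 (edgeR adjusted p = 0.68) and 0.63 (edgeR adjusted p = 0.579). The members' median interaction was 0.20, and -0.0599 without AL + NaIO3 replicate 2. A difference in the effect of NaIO3 between diets was not detectable for these genes with 3 libraries per group.

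Spread differed between groups. The coefficient of variation of CPM had a median over the 9 members of 8% in AL + PBS, 6.7% in IF + PBS, 21.5% in AL + NaIO3 and 32.9% in IF + NaIO3. AL + NaIO3 replicate 2 was the lowest of its group for 9 of 9 members and replicate 3 the highest for 7 of 9. That replicate 2 is the library with the cornea sum of 574 CPM, and the part of cornea in its low values was not tested. IF + NaIO3 replicate 2 was the lowest of its group for 7 of 9 members and replicate 1 the highest for 6 of 9.

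The members were next set against Rlbp1, the member with the smallest fitted change in AL + NaIO3 against AL + PBS, as counts per 100 Rlbp1 counts in the same library. This ratio needs no library total. Rlbp1 was chosen for it after the values had been seen and for its small change, so the ratio restates the CPM values on another scale and adds no support to them. Rpe65 was at 22.9, 19.1 and 27.8 in AL + PBS and at 10.3, 9.3 and 11.2 in AL + NaIO3. Rgr was at 111, 88.0 and 106 against 43.9, 33.6 and 42.6. In IF + NaIO3, Rpe65 was at 26.6, 12.4 and 19.5 and Rgr at 89.9, 47.4 and 85.9, each library above all 3 of AL + NaIO3. Ttr was at 164, 70.0 and 146 there and at 74.2, 82.7 and 79.2 in AL + NaIO3, and those groups overlapped.

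**Figure D4:**
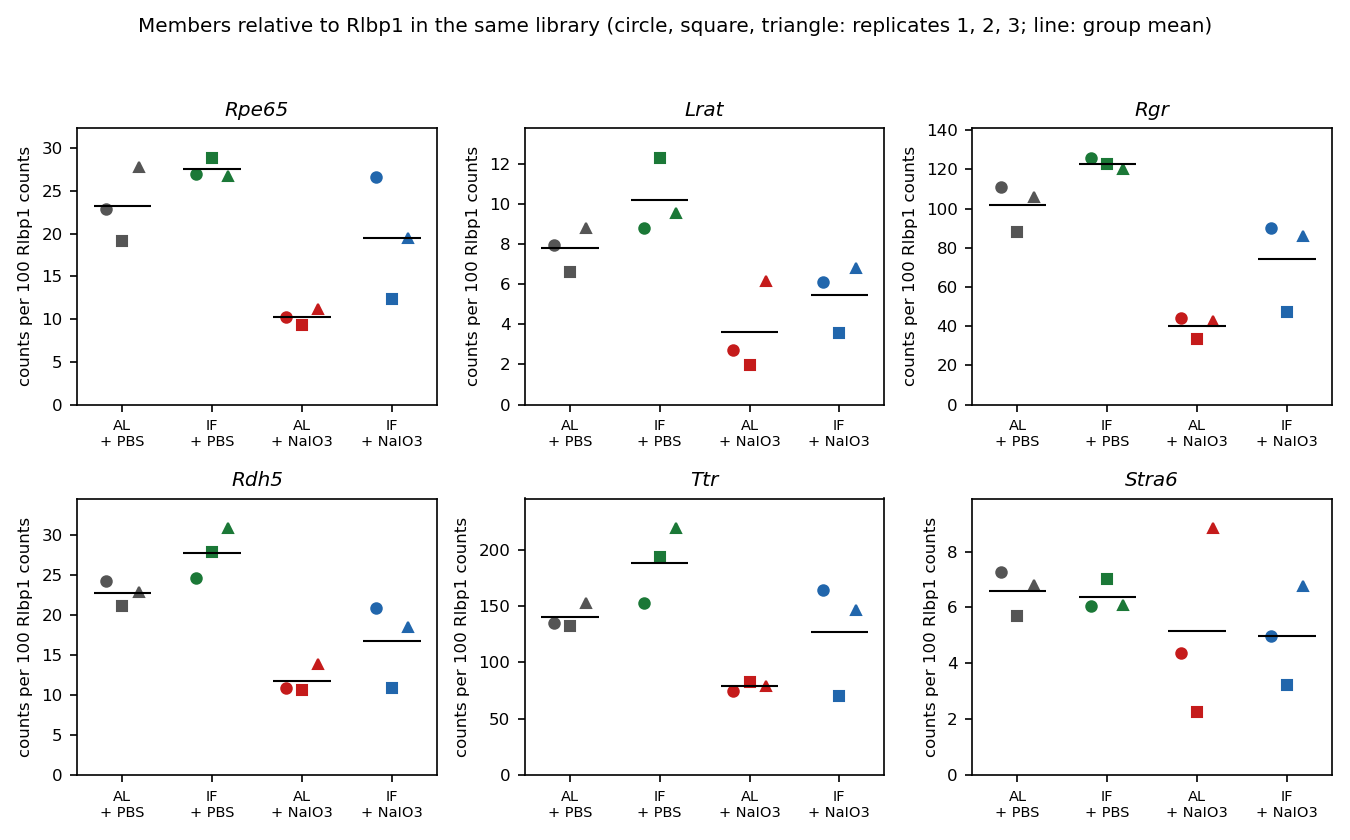
Counts of a member per 100 counts of Rlbp1 in the same library (vertical axis, from 0), with 1 point per library and a line at the group mean. Rpe65 has a mean of 23.3 in AL + PBS, 10.3 in AL + NaIO3 and 19.5 in IF + NaIO3, and its IF + NaIO3 libraries spread from 12.4 to 26.6.

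Levels of the members were correlated across the 12 libraries as a description, in log2 CPM, with the libraries sharing groups. Rpe65 and Rgr had a Pearson r of 0.98, Rdh5 and Rgr 0.97, Rdh5 and Ttr 0.96, and Rdh10 and Stra6 0.95. With group means removed, these were 0.90, 0.87, 0.90 and 0.95. Lrat and Stra6 had an r of 0.86, and 0.96 with group means removed, and within the AL + NaIO3 group both were highest in replicate 3. The pairs of the 8 members other than Best1 lay between 0.60 and 0.98, and between 0.32 and 0.96 with group means removed. Best1 had an r between -0.38 and 0.21 with them, and between 0.37 and 0.81 with group means removed. Outside the members, the genes whose log2 CPM was most like the members' mean over the 12 libraries were Ptgds (r = 0.97), Pltp (0.96), Cltrn (0.94), Gm9774 (0.94) and Grm4 (0.92), out of 15970 genes.

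Other genes of retinoid metabolism were read from lists. Of 4 lists with 31 genes of retinoid handling, none had a gene called in any of the 5 tests. Among 6 tested genes that handle retinoids beside the members in the RPE, 5 were lower and 1 higher in AL + NaIO3 by fitted values (median -0.13). Rdh11, a retinol dehydrogenase, had a log2 fold change of -0.33 (SE 0.16, edgeR adjusted p = 0.539), with groups that overlapped. All 4 genes of the photoreceptor side of the cycle were lower by fitted values (median -0.28). Among them were the flippase Abca4 (-0.61, SE 0.30, edgeR adjusted p = 0.537) and Rdh8 (-0.34, SE 0.15, edgeR adjusted p = 0.488). The same 4 were all higher in IF + NaIO3, with medians of 0.14 against IF + PBS and 0.29 against AL + NaIO3. Of 5 tested genes of vitamin A supply and storage, 3 were higher and 2 lower in AL + NaIO3 against AL + PBS (median 0.00). Scarb1, a carotenoid and lipoprotein receptor, had -0.35 (SE 0.20, edgeR adjusted p = 0.581) and the saturase Retsat 0.26 (SE 0.20, edgeR adjusted p = 0.692).

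Retinoic acid genes were mostly higher by fitted value after NaIO3 in freely fed mice. Of 14 genes for its synthesis, breakdown and receptors, 10 were higher and 4 lower in AL + NaIO3 by fitted values (median 0.27), and 5 had unadjusted p under 0.05, against 10.2% of all genes. Their sum was 259, 258 and 393 CPM in AL + NaIO3 and between 248 and 267 CPM in AL + PBS, so without replicate 3 the treated sums lay within the control range. The catabolic enzymes Cyp26c1 (1.71, SE 0.72, edgeR adjusted p = 0.474) and Cyp26a1 (1.39, SE 0.46, edgeR adjusted p = 0.357) had the largest values. Cyp26a1 was at 5.49, 4.87 and 14.2 CPM in AL + NaIO3, with replicate 3 far above both others, and at 2.72, 3.99 and 2.76 CPM in AL + PBS. In IF + NaIO3 against AL + NaIO3, 10 of the 14 were lower by fitted values (median -0.32). Those comparisons share the AL + NaIO3 libraries. In IF + NaIO3 against IF + PBS, 5 of the 14 were higher and 9 lower by fitted values (median -0.18).

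Among 14 RPE genes for transport, junctions and transcription, 1 was called in AL + NaIO3 against AL + PBS, against 0.0769% of all genes. This was Slc16a8, the lactate transporter MCT3 of the RPE, which fell by 1.02 on the log2 scale (SE 0.11, edgeR adjusted p = 0.0392). Under the alternatives, calls over all genes ranged from 0 to 411, so the call of Slc16a8 was lost where that count was 0. Slc16a8 was at 62.2, 65.0 and 64.5 CPM in AL + PBS and at 31.7, 29.2 and 32.9 CPM in AL + NaIO3, or 49.3% by fitted value. In IF + NaIO3 it was at 72.8, 37.5 and 58.3 CPM. Replicate 2 was again the lowest library of that group. Of the 14, 8 were lower and 6 higher by fitted values, with a median of -0.07.

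Pigment genes were higher by fitted value in freely fed mice after NaIO3, where most members were lower. All 10 were higher by fitted value in AL + NaIO3 than in AL + PBS (median 1.15), with none called, and the largest values were those of Tyrp1 (2.69, SE 1.22, edgeR adjusted p = 0.505) and Pmel (1.97, SE 1.08, edgeR adjusted p = 0.572). Tyrp1 was at 25.2, 21.6 and 639 CPM in AL + NaIO3 and at 47.3, 25.03 and 35.5 CPM in AL + PBS, and Pmel at 29.6, 15.3 and 417 CPM against 51.2, 28.3 and 40.1 CPM. In both genes replicate 3 alone was high, and the other treated libraries were below the control mean. Slc24a5, named after its values were seen, was the 1 pigment gene with groups that did not overlap (1.20, SE 0.37, edgeR adjusted p = 0.324). Summed, the pigment genes were at 478 to 2688 CPM in AL + NaIO3 and at 525 to 669 CPM in AL + PBS, with the highest value in replicate 3. Without that library the treated sums were 478 and 615 CPM, within or below the control range. In IF + NaIO3 against IF + PBS, 9 of 10 were lower by fitted value (median -0.43, none called), and 5 had unadjusted p under 0.05, against 15.2% of all genes. In IF + NaIO3 against AL + NaIO3, which shares replicate 3, all 10 were lower by fitted value (median -1.75, none called), and 7 had unadjusted p under 0.05, against 11.7% of all genes. Pigment genes are made by choroidal melanocytes as well as by the RPE, and the part of each was not tested.

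Markers of other cells differed between libraries and groups, and their part in the members' values was not tested. Macrophage and microglia markers, 9 of 9 higher by fitted value with none called, summed to 122 to 813 CPM in AL + NaIO3 and to 55.6 to 61.3 CPM in AL + PBS. In IF + NaIO3 that sum was 43.9 to 60.7 CPM. Lyz2, a lysozyme gene of myeloid cells, had a log2 fold change of 3.96 (SE 1.06, edgeR adjusted p = 0.284), at 49.3, 34.3 and 572 CPM in AL + NaIO3 and at 12.1, 12.5 and 18.2 CPM in AL + PBS. Replicate 3 was the highest by far, and the other treated libraries were still above the controls. Photoreceptor markers, 12 of 15 lower by fitted value, summed to 20900 to 69110 CPM in AL + NaIO3 and to 59970 to 63250 CPM in AL + PBS, and AL + NaIO3 replicate 1, with the highest photoreceptor sum of the 12 libraries, had Rpe65 at 51.3 CPM. Sclera and choroid stroma markers summed to 101 to 1335 CPM in AL + NaIO3 and to 141 to 217 CPM in AL + PBS. Replicate 3 alone gave the high value, and the other treated sums, 199 and 101 CPM, lay within or below the control range. Gfap, a glial filament gene among the Müller cell markers, had a log2 fold change of 3.34 (SE 0.48, edgeR adjusted p = 0.0873), at 112, 97.2 and 304 CPM in AL + NaIO3 and at 12.3, 23.1 and 15.9 CPM in AL + PBS. The Müller cell list had 6 of 8 genes higher by fitted value, but its sum was 3686, 3696 and 4665 CPM in AL + NaIO3. Only replicate 3 was thus above the AL + PBS range of 4004 to 4489 CPM, and both others were below it. The endothelial sum was 222 to 448 CPM in AL + NaIO3 and 187 to 197 CPM in AL + PBS. The ciliary body epithelium sum was 67.1 to 118 CPM against 59.7 to 64.9 CPM. By fitted value 5 of 5 endothelial, 4 of 4 ciliary body and 4 of 4 cornea genes (median 2.18) were higher in AL + NaIO3. All 5 tested lens genes were lower (median -6.13), and none of these lists had a gene called.

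**Figure D5:**
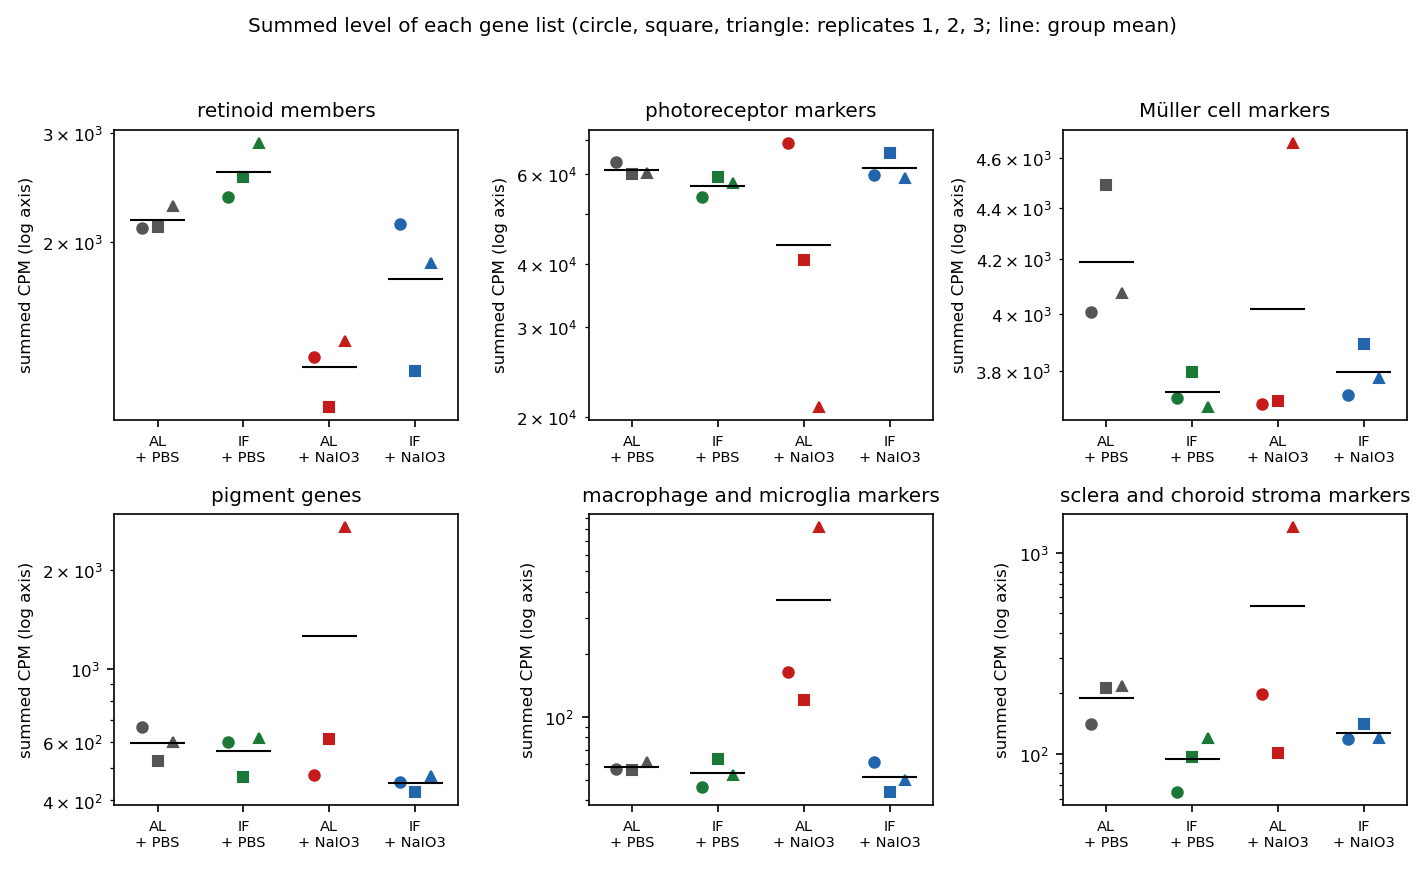
Summed CPM of 6 gene lists (vertical log axes, each with its own range) in the 4 groups, with 1 point per library and a line at the group mean. The members are between 1088 and 1389 CPM in AL + NaIO3 and between 2105 and 2288 CPM in AL + PBS, and AL + NaIO3 replicate 3 (triangle) is the highest point for pigment, macrophage and stroma lists and the lowest for photoreceptors.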

How the data were processed

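Poly-A RNA-seq of 12 mouse libraries was analysed, 3 per group. Per the labels, the authors' processing notes name HISAT2, StringTie, DESeq2 and edgeR and the build GRCm39. The deposited counts are whole, unnormalized reads per gene, and the counting tool, annotation and use of strand are not given in the sources used here. The deposited FPKM is a unit per length and library size, but counts over FPKM between 2 libraries did not give 1 ratio for all genes and how the authors made it is not given in the sources used here. The authors' own differential table (fold changes and p-values) was not used. The deposited gene positions overlapped RefSeq GRCm38.p6 for 9 of 9 members, so positions are given on GRCm38.

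Counts were scaled by TMM and filtered by filterByExpr in edgeR 4.0.16 (R 4.3.3). Quasi-likelihood tests used the 6 libraries of each pair, or 12 for the interaction, with Benjamini-Hochberg adjustment over all tested genes. Calls need an adjusted p under 0.05 and, except for the interaction, a fold change of at least 1.5. All 9 members passed the filter in each test. SE is the log2 fold change divided by the root of F. log2 CPM used a prior count of 2. The test was also run on simulated counts, and the outcome is not given here. Libraries differed beyond sampling noise in each within-group pair. The 3-count floor covers counting error only. DESeq2 was version 1.42.0. Alternatives were DESeq2, upper quartile scaling, other filters, 1 fit of 12 libraries, a replicate block and leaving out each library.

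The members and lists were chosen with earlier results of these data known. All members are named in each comparison. Other genes are the called ones of a list or otherwise the 2 with the largest fitted change in AL + NaIO3, and the 5 most like the members' mean. Slc24a5 and the genes that overlap a member's locus are named in addition. Of the lists of markers of other cells, Lyz2 and Gfap alone are named, each with the largest fitted change of its list. One gene that this rule names is not reported here.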

Additional observations from a re-analysis of the deposited data

How the results depend on the processing

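Of the single-member values under alternatives, 552 kept direction and side of the threshold, 27 passed it newly and 39 changed sign. The number of members called in AL + NaIO3 against AL + PBS was 0 in the reported fit. It was 4 with DESeq2, when 411 of 15612 genes were called, and 2 with no filter on low counts (19 of 18402). It was 3 with 12 libraries in 1 fit (177 of 15970). With that fit less AL + NaIO3 replicate 3, chosen after the data had been seen, it was 4 (127 of 16105). It was between 0 and 5 when 1 library was left out, in fits that called between 0 and 90 genes in all. In IF + NaIO3 against AL + NaIO3 it was 2 with DESeq2 (478 of 15648 genes) and 1 in the 12-library fit less that replicate (122 of 16105). In IF + NaIO3 against IF + PBS it was 3 with DESeq2 (72 of 15305 genes). There it was between 0 and 1 with 1 library left out (0 to 197 genes), and the members' median was between -0.94 and -0.36. The cause was not tested. Over all genes, calls ranged from 0 to 411 (12 reported) in AL + NaIO3 against AL + PBS and from 0 to 478 (6 reported) in IF + NaIO3 against AL + NaIO3. They ranged from 0 to 472 and from 0 to 197 (0 reported in each) in IF + PBS against AL + PBS and IF + NaIO3 against IF + PBS, and from 3 to 366 (5 reported) in the interaction.

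The labels do not say whether replicate numbers pair the mice. Same-numbered libraries had deviations correlated between -0.10 and 0.14, with 1 of 18 pairs over 0.1. In all, 0 of 12 libraries correlated best with their own number in each other group. Such correlations cannot show whether same-numbered libraries shared a cage or a day. With the replicate block, 2 members were called in AL + NaIO3 against AL + PBS (Rpe65 and Rgr) and none in the other tests. The block moved the count of calls over all genes from 12 to 28 of 15612 there.

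Sign changes were in members near 0 in the reported fit or with a wide SE. In IF + NaIO3 against AL + NaIO3, Rdh10 was -0.0145 and Rlbp1 -0.0426 with upper quartile scaling, Rlbp1 -0.0056 with at least 10 counts in every library, Stra6 0.10 with the block, and Stra6 0.58 in the added fit. With 1 library left out, Rdh10 was between -0.14 and 0.27, Rlbp1 between -0.0617 and 0.0514 and Stra6 between -0.47 and 0.57. In IF + PBS against AL + PBS, Rlbp1 was 4e-04 with DESeq2 and with 12 libraries and 0.0045 with no filter. With 1 library left out, it was between -0.0333 and 0.0368, and Stra6 between -0.11 and 0.0051. Best1 was between -0.52 and 0.14 in IF + NaIO3 against IF + PBS. In the interaction, Rlbp1 was -0.0364 with upper quartile scaling and Stra6 0.0336 with the block. With 1 library left out, the interaction was between -0.0599 and 0.0492 for Rlbp1, -0.43 and 0.63 for Stra6, -0.14 and 0.87 for Lrat, -0.22 and 0.20 for Rdh10, -0.0083 and 0.46 for Rdh5, and -0.005 and 0.57 for Ttr. Depth limits Best1 most, at 8 to 53 counts.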
